A study of Bos taurus with 12 samples.

Results

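The integrated stress response was followed through 8 transcripts in bovine cumulus-oocyte complexes. They were ATF4, its partner transcription factors DDIT3 and ATF3, the feedback genes TRIB3 and PPP1R15A, and the effectors ASNS, CHAC1 and SESN2. The genes were picked by symbol as known members of the pathway, with earlier results of these data known, and are 8 of 18057 gene rows. Each symbol had 1 row, and all 8 passed the filter on low counts, with 23 to 8123 reads per library.

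A complex is an oocyte inside its shell of cumulus granulosa cells. Groups of 50 complexes were matured in 4-well plates, in plain medium (Control, 6 libraries) or in medium with polystyrene particles 50 nm across at 3 µg/mL (Nanoplastics, 6 libraries) before total RNA was taken for sequencing. No label names a strain, an age or a genetic change of the cows. The 6 samples per group came from 3 batches of material and were made separately within a batch. Which sample belongs to which batch is not given, so batch could not be included in any test and its part was not tested. Oocyte and cells were sequenced together, so for any transcript fewer cells of a type and less RNA per cell cannot be told apart.

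In the integrated stress response, kinases that sense amino acid shortage, unfolded protein, heme shortage or double-stranded RNA phosphorylate the translation factor eIF2. Protein synthesis then falls in general while ATF4 mRNA is translated better, and ATF4 protein switches on genes of amino acid supply, of feedback and, under lasting stress, of cell death. ATF4 protein is thus set largely by translation, which mRNA counts do not show. Around the oocyte, cumulus cells supply amino acids and small metabolites through gap junctions and make much secreted matrix during maturation, so the protein-folding and amino-acid branches of the pathway are both of interest there.

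Total counts per library ran from 14167578 to 20008464. Levels are given as CPM, the share of a library's counts scaled between libraries by the trimmed mean of M-values (TMM). Markers of both labelled cell types were present, with 12 of 12 oocyte and 11 of 11 granulosa and cumulus genes expressed enough to be tested. The summed level of the granulosa and cumulus markers ran from 8629 to 10170 CPM in control and from 9137 to 10510 CPM in nanoplastics libraries. That of the oocyte markers ran from 992 to 1235 CPM and from 970 to 1219 CPM. Markers listed for other cell types were also measured, though several can be expressed by cumulus cells as well. Of the theca and stromal markers 6 of 8 were tested, with CYP17A1 and LHCGR too low, and their sum of 352 to 543 CPM in control and 378.5 to 629 CPM in nanoplastics libraries came mostly from LUM and PDGFRA. All 6 had a positive log2 fold change, beside 50.5% of genes tested. An unadjusted p under 0.05 in edgeR was reached by 3 of them, beside 2.1% of genes tested. These were COL1A2 (2.19), COL6A3 (1.88) and COL3A1 (1.06), all 3 with an adjusted p of 0.999. Their levels were low and spread widely under nanoplastics. COL1A2 averaged 0.92 CPM (SD 0.70) among controls against 4.27 CPM (SD 6.02) under nanoplastics. COL6A3 averaged 0.96 (SD 0.49) against 3.61 (SD 3.99), and COL3A1 2.71 (SD 1.71) against 5.71 (SD 4.20). Leukocyte markers summed to 4.98 to 9.34 CPM and 6.33 to 15.7 CPM, with PTPRC, CD14 and CD3E too low to test. Red blood cell markers summed to 2.46 to 104 CPM in control and 3.74 to 354 CPM in nanoplastics libraries. HBB was at 0 in every library, and HBA differed by 1.82 on the log2 scale (interval −0.42 to 4.06). Endothelial markers summed to 37.5 to 48.7 CPM and 38.9 to 52.7 CPM. Their part in the results below was not tested.

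Transcripts of the integrated stress response were not called different between control and nanoplastics libraries. For all 8 the nanoplastics mean lay above the control mean, by 1.11-fold for ATF3 up to 1.99-fold for TRIB3, yet the groups overlapped for every gene. The clearer pattern lay between libraries within each group. In each group the same 3 libraries held the highest levels of all 8 transcripts.

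ATF4, the transcription factor at the centre of the response, stood at 231, 304, 355, 282, 281 and 339 CPM in Control 1 to 6. In Nanoplastics 1 to 6 it stood at 479, 372, 301, 277, 345 and 313 CPM. Nanoplastics 1 and 2 were above every control library, and the other 4 lay inside the control range. The control mean was 298 ± 44.9 CPM and the nanoplastics mean 348 ± 72.4 CPM (SD, n = 6 each), with a log2 fold change of 0.22 (SE 0.13, 95% interval −0.05 to 0.49) in edgeR's quasi-likelihood test (adjusted p = 0.999). Here and below, a log2 fold change is nanoplastics minus control and p-values were adjusted by Benjamini-Hochberg over all 12311 genes tested.

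DDIT3 encodes CHOP, a transcription factor of prolonged stress that dimerises with other basic leucine zipper proteins. It was measured at 10.95, 18.01, 16.6, 13.6, 15.5 and 21.7 CPM in Control 1 to 6, and at 25.9, 22.5, 13.0, 12.5, 24.4 and 15.9 CPM in Nanoplastics 1 to 6. Nanoplastics 1, 2 and 5 exceeded all control libraries, while Nanoplastics 3, 4 and 6 stood within the lower part of the control range. The log2 fold change was 0.25 (SE 0.20, interval −0.18 to 0.67; edgeR adjusted p = 0.999).

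ATF3, a stress-induced transcription factor of the same protein family, had the lowest log2 fold change of the 8. Its values in Control 1 to 6 were 63.2, 97.7, 87.0, 73.3, 64.3 and 88.5 CPM. Those in Nanoplastics 1 to 6 were 112, 93.7, 76.6, 68.4, 105 and 69.9 CPM. Only Nanoplastics 1 and 5 lay above the control range, and the log2 fold change was 0.15 (SE 0.14, interval −0.15 to 0.44; edgeR adjusted p = 0.999).

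**Figure D1:**
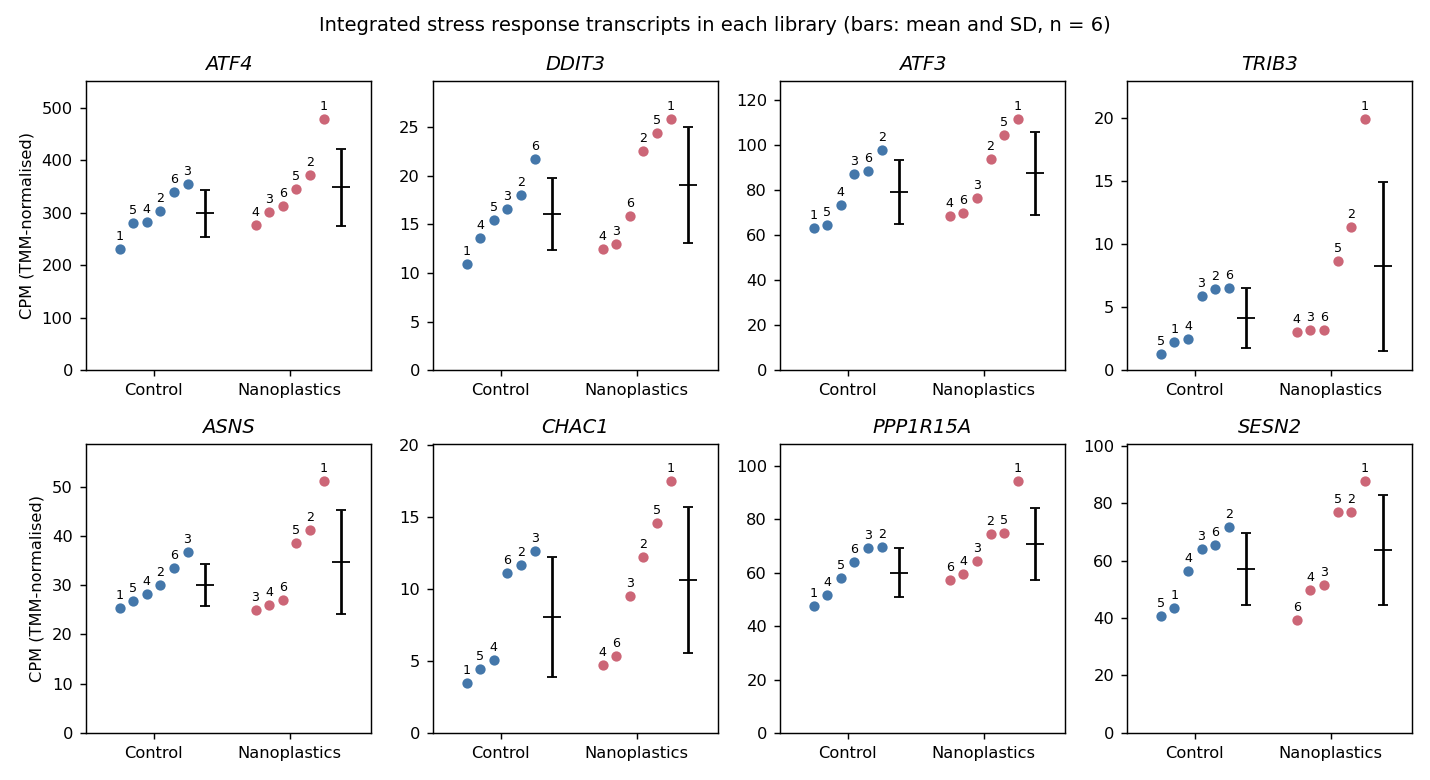
Level of each of the 8 transcripts in CPM (vertical axes start at 0) in every library, with the replicate number above each point and the mean and SD of each group (n = 6) beside it. Nanoplastics 1 is the highest library in all 8 panels, and Nanoplastics 3, 4 and 6 lie within or, for ASNS and SESN2, just below the control range.

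TRIB3 encodes a pseudokinase induced by ATF4 and CHOP that in turn restrains both and inhibits AKT. It had the largest difference and the widest spread of the 8. Control 1 to 6 held 2.25, 6.44, 5.86, 2.48, 1.28 and 6.54 CPM, and Nanoplastics 1 to 6 held 19.97, 11.4, 3.19, 3.01, 8.70 and 3.22 CPM. Again Nanoplastics 1, 2 and 5 were above all controls, and the other nanoplastics libraries were below Control 2, 3 and 6. The means were 4.14 ± 2.39 CPM and 8.25 ± 6.72 CPM (SD, n = 6 each), and the log2 fold change was 0.99 (SE 0.50) with an interval from −0.07 to 2.05 (edgeR unadjusted p = 0.0642, adjusted p = 0.999). Without Nanoplastics 1 the log2 fold change of TRIB3 was 0.51.

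PPP1R15A encodes GADD34, the subunit that directs protein phosphatase 1 to eIF2 and so ends the translational arrest. Its level was 47.6, 69.6, 69.4, 51.7, 57.9 and 64.2 CPM in Control 1 to 6, against 94.2, 74.5, 64.3, 59.6, 74.9 and 57.4 CPM in Nanoplastics 1 to 6. The 3 libraries above the control range were once more Nanoplastics 1, 2 and 5. This gave a log2 fold change of 0.24 (SE 0.12, interval −0.03 to 0.50; edgeR unadjusted p = 0.0745, adjusted p = 0.999).

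Among the effectors, ASNS encodes asparagine synthetase, the classical amino-acid-response target of ATF4. It was present at 25.4, 30.0, 36.7, 28.2, 26.8 and 33.4 CPM in Control 1 to 6, and at 51.0, 41.1, 24.9, 25.9, 38.6 and 27.0 CPM in Nanoplastics 1 to 6. The nanoplastics libraries thus took both the 3 highest places and the lowest place of all 12. The log2 fold change was 0.21 (SE 0.16, interval −0.14 to 0.56; edgeR adjusted p = 0.999).

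CHAC1 encodes an enzyme that degrades glutathione. It stood at 3.46, 11.7, 12.6, 5.09, 4.41 and 11.1 CPM in Control 1 to 6, and at 17.4, 12.2, 9.49, 4.70, 14.5 and 5.31 CPM in Nanoplastics 1 to 6. No library lay between 5.31 and 9.49 CPM, and both groups had libraries on either side of that gap. The log2 fold change of 0.40 (SE 0.37) had an interval from −0.38 to 1.17 (edgeR adjusted p = 0.999).

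SESN2 encodes sestrin 2, which restrains mTORC1 when leucine is short. Control 1 to 6 held 43.6, 71.7, 64.0, 56.2, 40.7 and 65.4 CPM, and Nanoplastics 1 to 6 held 87.6, 76.9, 51.5, 49.9, 76.8 and 39.4 CPM. The highest and the lowest of all 12 libraries both belonged to the nanoplastics group. Its log2 fold change was 0.16 (SE 0.19, interval −0.24 to 0.56; edgeR adjusted p = 0.999), and it had the largest unadjusted p of the 8, at 0.408.

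**Figure D2:**
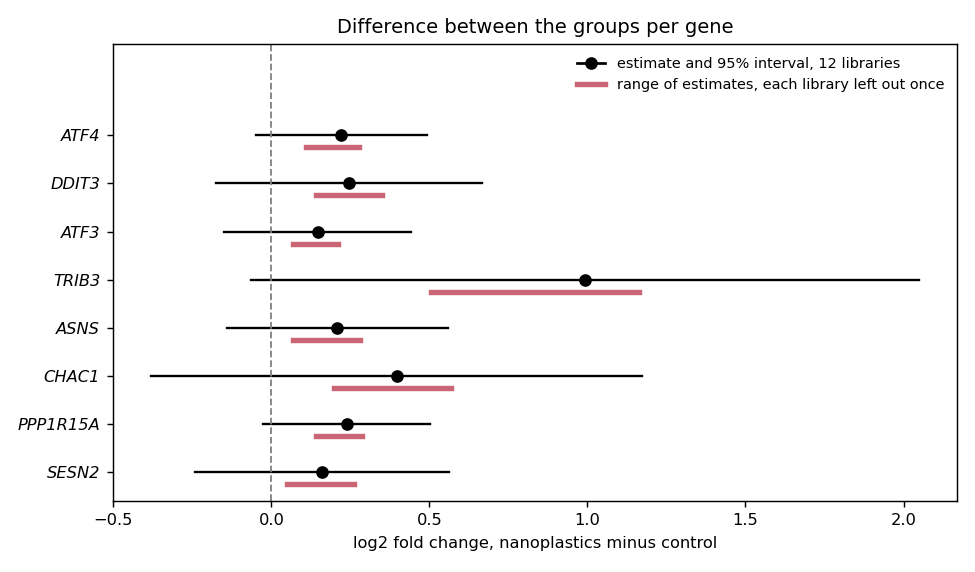
Log2 fold change of each transcript (nanoplastics minus control) with its 95% interval from edgeR over 12 libraries, and below it the range of estimates when each library is left out once. All 8 intervals include 0, and the estimates without 1 library stay above 0, from 0.05 for SESN2 to 1.16 for TRIB3.

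Of the 8 genes, 0 were called higher and 0 lower at an adjusted p of 0.05, as were 0% of all 12311 genes tested with edgeR. At an unadjusted p under 0.05 there were 0 of the 8, against 2.1% of genes tested. DESeq2 and limma-voom also called 0 of all genes, with 319 and 232 genes at an unadjusted p under 0.05 in all and 0 of the 8. Positive log2 fold changes were found for 8 of 8, against 50.5% of genes tested. The median was 0.23 over the 8 and 0.00133 over all genes tested. Because the 8 varied together between libraries, as described below, their 8 directions are not separate observations.

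A log2 fold change at least as high as the lowest of the 8 occurred in 11.6% of genes tested. For no member did all nanoplastics libraries lie outside the control range on one side, which held for 0.0731% of genes tested. The 95% interval lay within 1.5-fold in either direction for 5 of the 8 genes (83.3% of genes tested), namely ATF4, ATF3, ASNS, PPP1R15A and SESN2. For DDIT3 it reached 1.59-fold higher, for CHAC1 2.25-fold and for TRIB3 4.14-fold, so differences up to these sizes lay inside the intervals. The edgeR intervals treat libraries as separate samples. Samples shared batches that could not be assigned, so the intervals may be too narrow or too wide. Left out singly, Nanoplastics 1 moved the median of the 8 from 0.23 to 0.13. The authors' deposited table lists all 8 genes with an adjusted p of 0.999928, and its smallest p among them is 0.0691, for PPP1R15A.

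Between libraries of the same group the 8 transcripts varied more than most genes. The within-group SD on the log2 CPM scale was 1.05 for TRIB3, 0.79 for CHAC1, 0.41 for DDIT3 and 0.40 for SESN2, against a median of 0.18 over all genes tested. It was 0.33 for ASNS, 0.28 for ATF3 and 0.25 each for ATF4 and PPP1R15A. In edgeR's estimate of the variability of each gene, TRIB3 ranked at the 99.5th percentile of genes tested, CHAC1 at 98.5 and PPP1R15A, the steadiest of the 8, at 67.2. The highest library exceeded the lowest by 15.6-fold for TRIB3 and 5.04-fold for CHAC1, and by 1.76-fold for ATF3. In 7 of the 8 the SD was larger among nanoplastics than among control libraries, the exception being CHAC1. This difference was not tested, and the share over all genes tested was not taken. Nanoplastics 1 was the highest library for each of the 8, which varied together, so they are not separate observations.

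The same libraries were high for each of the 8 transcripts. Nanoplastics 1 was the highest of all 12 libraries in 8 of 8 genes. In each of the 8, the 3 highest nanoplastics libraries were 1, 2 and 5, and the 3 highest control libraries were 2, 3 and 6. Control 1 was the lowest library for 5 genes. VEGFA and HSPA5 had the same 3 highest libraries in each group as the 8. The share of all genes tested with these libraries highest was not taken.

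**Figure D3:**
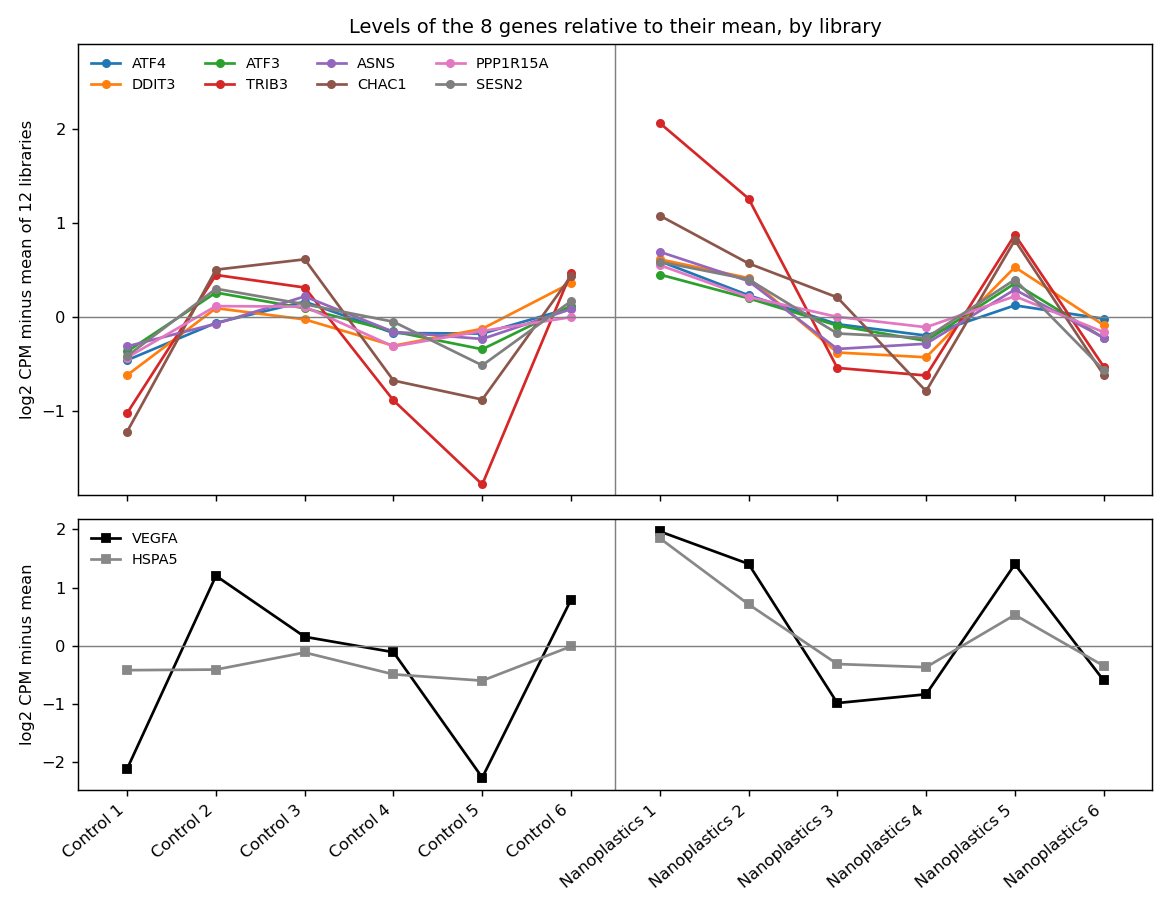
Upper panel, log2 CPM of each of the 8 transcripts minus its mean over 12 libraries, by library, with a vertical line between the groups; lower panel, the same for VEGFA and HSPA5. The lines share their direction but not their size, TRIB3 spanning 15.6-fold and ATF3 1.76-fold, with Control 2, 3 and 6 and Nanoplastics 1, 2 and 5 highest within their groups.

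All 28 pairs of the 8 transcripts were positively correlated over the 12 libraries on the log2 CPM scale. Pearson's r ran from 0.77 for ATF4 with SESN2 to 0.96 for ATF3 with CHAC1, with a median of 0.88. Each pair passed a permutation test with 100000 resamples, two-sided and adjusted over the 28 pairs, with adjusted p-values from 9.33e-05 to 0.00248. The smallest p that these resamples can give is 1e-05. The permutation tests here and below treat libraries as separate samples. Samples shared batches that could not be assigned, so these p-values may be too small. Spearman's rho ran from 0.75 to 0.94, with adjusted p-values up to 0.00663, also over 28 pairs. Among all pairs of genes tested, 2.28% had an r at least as far from 0 as the weakest of the 28, and 49.9% had a positive r.

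By Pearson's r, ATF4 was closest to PPP1R15A (r = 0.93, rho = 0.80; permutation p = 5e-05 and 0.00238) and ASNS (r = 0.92, rho = 0.90; p = 2e-05 and 0.00028). By Spearman's rho it was closest to CHAC1 (rho = 0.93, r = 0.86; permutation p = 7e-05 and 9e-05) and TRIB3 (rho = 0.91, r = 0.88; p = 8e-05 and 0.00016), and PPP1R15A came after 5 of the other members. Without the 2 farthest libraries r with ATF4 was 0.90 for ASNS and 0.78 for PPP1R15A. ATF3 ran with CHAC1 (r = 0.96, rho = 0.94; p = 1e-05 and 3e-05) and with SESN2 (r = 0.95, rho = 0.92; p = 1e-05 and 6e-05). Ranked by r with CHAC1 among the 12310 other genes tested, ATF3 came in place 2. PPP1R15A came in place 13 for ATF4. The member closest to DDIT3 was ASNS (r = 0.89, rho = 0.93; permutation p = 6e-05 and 5e-05), in place 166 of the genes ranked by r with DDIT3.

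Values without single libraries and within groups were as follows. Without the 2 libraries farthest from the median of the first gene of a pair, r was at least 0.67 in all 28 pairs, with a median of 0.81. Without Nanoplastics 1 it ran from 0.69 to 0.95. Within the 6 control libraries r ran from 0.67 to 0.97 (median 0.83), and within the 6 nanoplastics libraries from 0.80 to 1.00 (median 0.93). In exact permutation tests over 720 orders, unadjusted, 14 of the 28 pairs had p under 0.05 among control and 26 among nanoplastics libraries. Libraries were also divided at the widest gap in each gene's own levels. This split was picked from the same values and narrows the range of that gene, which can lower r. Among the libraries below the gap, where at least 6 lay there, r with the other 7 genes was −0.23 to 0.64 for TRIB3, 0.05 to 0.88 for ATF3, 0.25 to 0.77 for ATF4 and 0.30 to 0.82 for PPP1R15A. It was 0.34 to 0.78 for ASNS and 0.43 to 0.77 for DDIT3. Among those above it, r was 0.56 to 0.92 for ATF3, 0.77 to 0.93 for TRIB3, 0.80 to 0.92 for CHAC1 and 0.84 to 0.97 for SESN2.

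**Figure D4:**
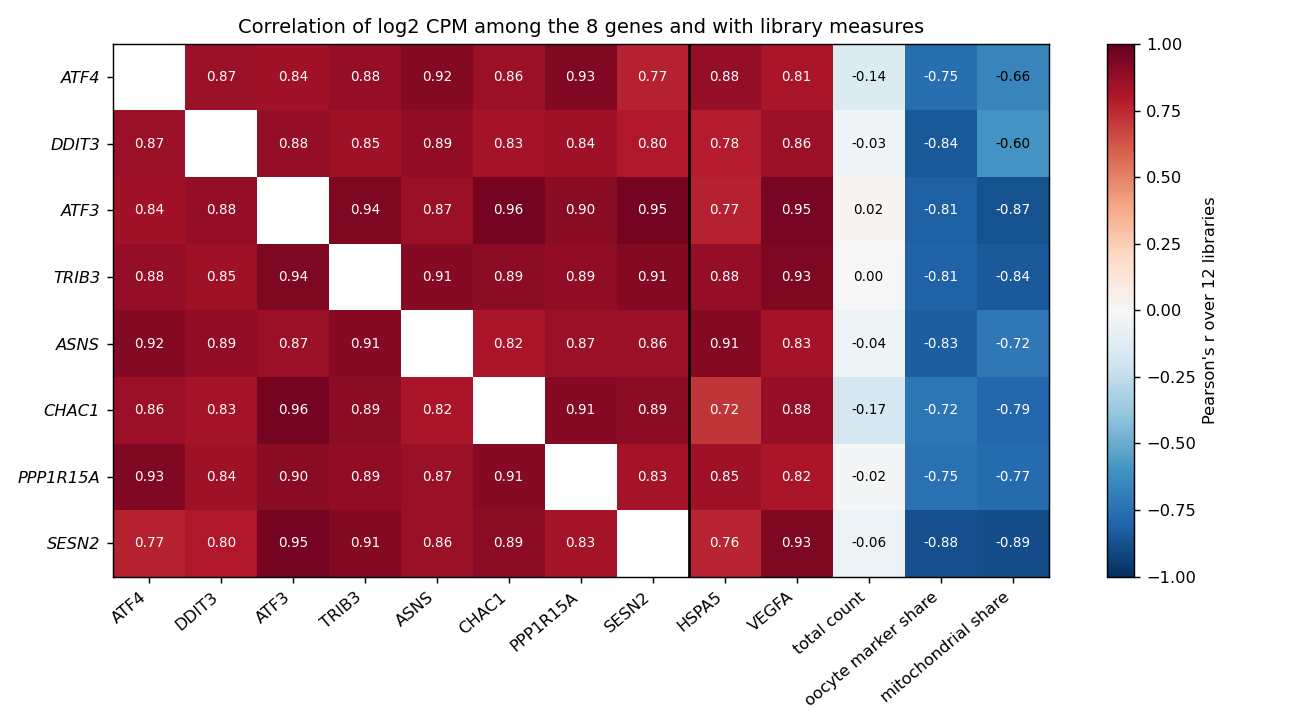
Pearson's r of log2 CPM over 12 libraries for each pair of the 8 transcripts (left of the line) and of each with 5 measures of the library (right), on a colour scale from −1 to 1. All pairs of the 8 lie at 0.77 or above, the columns of HSPA5 and VEGFA are positive, those of the oocyte and mitochondrial shares negative, and total count is near 0.

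Several measures taken per library moved with the 8 transcripts. In a family of 40 relations, 8 genes with 5 measures, 31 passed an adjusted p of 0.05 in permutation tests of Pearson's r. Of these, 8 were with VEGFA and 8 with HSPA5, which are single transcripts. VEGFA is also among the further ATF4 or CHOP targets listed below. Those passes are thus correlations between genes. VEGFA, a secreted angiogenic factor induced by low oxygen and by ATF4, ranged from 108 to 1200 CPM among controls and from 263 to 2037 CPM under nanoplastics. It was correlated with all 8, from r = 0.81 with ATF4 (rho = 0.86; permutation p = 0.00072 and 0.00062, adjusted 0.00164 and 0.0022) to r = 0.95 with ATF3 (rho = 0.93; p = 3e-05 and 5e-05, adjusted 0.0004 and 0.00048). An r at least as far from 0 as the weakest of these 8 was found for 5.73% of genes tested. Without the 2 libraries farthest from the median, the values ran from 0.69 to 0.99. They ran from 0.71 to 0.99 within control libraries and from 0.86 to 0.99 within nanoplastics libraries. Exact permutation tests, unadjusted, gave p from 0.00139 (SESN2) to 0.144 (PPP1R15A) among controls. Among nanoplastics libraries p ran from 0.00139 (ASNS) to 0.0611 (CHAC1).

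HSPA5, which encodes the BiP chaperone of the endoplasmic reticulum, was likewise correlated with all 8. The values ran from r = 0.72 for CHAC1 (rho = 0.85; permutation p = 0.00257 and 0.00085, adjusted 0.00428 and 0.00262) to r = 0.91 for ASNS (rho = 0.73; p = 5e-05 and 0.00947, adjusted 0.0004 and 0.014). For HSPA5 12.5% of genes tested had an r at least as far from 0 as the weakest of the 8. Leaving out the 2 farthest libraries gave r from 0.70 to 0.85. Within control libraries, where HSPA5 spanned only 812 to 1222 CPM, r was 0.53 to 0.84. Within nanoplastics libraries, at 954 to 4436 CPM, it was 0.84 to 0.98. In exact permutation tests, unadjusted, p among controls was 0.0458 for ASNS and 0.0569 (TRIB3) to 0.293 (PPP1R15A) for the others. Among nanoplastics libraries these tests gave p from 0.00278 (ATF4) to 0.0375 (DDIT3).

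The share of counts in 12 oocyte markers was lower where the 8 transcripts were higher, and UCHL1 alone made up 61.5% to 72.9% of it. That share was 0.111% ± 0.0101 among controls and 0.107% ± 0.0136 under nanoplastics (SD, n = 6 each), with r from −0.72 for CHAC1 (rho = −0.71; permutation p = 0.0106 and 0.0118, adjusted 0.0142 and 0.0169) to −0.88 for SESN2 (rho = −0.90; p = 0.00025 and 0.0001, adjusted 0.000982 and 0.000667). Without the 2 farthest libraries r lay between −0.51 and −0.88. An r as far from 0 as the weakest of the 8 held for 9.9% of genes tested. The oocyte and mitochondrial shares were taken over all counts without TMM scaling, unlike the CPM of the 8. TMM factors ran from 0.929 in Nanoplastics 1 to 1.04 in Control 5, and what this difference in scale adds to r was not tested. Within control and within nanoplastics libraries r stayed negative, at −0.62 to −0.86 and −0.71 to −0.93. In exact permutation tests, unadjusted, p among controls was 0.0306 for DDIT3 and 0.0569 (SESN2) to 0.19 (PPP1R15A) for the others. Among nanoplastics libraries these tests gave p from 0.0167 (SESN2) to 0.143 (CHAC1). With the 11 other markers alone, chosen after seeing the data, 7 of 8 relations passed (r from −0.54 to −0.86, permutation tests with adjusted p from 0.0016 to 0.0886), CHAC1 being the exception. Those values were weaker within control libraries (−0.18 to −0.75) and, without the 2 farthest libraries, ran from −0.31 to −0.83. With UCHL1 alone 7 of 8 passed, r running from −0.59 to −0.90, and the exception was DDIT3 (adjusted p = 0.0549 in the permutation test).

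Mitochondrially encoded transcripts, at 1.77% to 2.44% of counts, were also lower in those libraries. Here 7 of 8 relations passed, with SESN2 at r = −0.89 (rho = −0.90; permutation p = 0.00023 and 0.00017, adjusted 0.000982 and 0.00095), and DDIT3 did not (r = −0.60, rho = −0.64; p = 0.0426 and 0.0276, adjusted 0.0532 and 0.0346). DDIT3 did pass by Spearman's rho. The level of the weakest that passed was reached by 20.1% of genes tested. Within control libraries r ran from −0.24 to −0.82 and within nanoplastics libraries from −0.86 to −0.98. Without the 2 farthest libraries it ran from −0.38 to −0.84. In exact permutation tests, unadjusted, p among controls was 0.0375 for SESN2 and 0.0708 (ATF3) to 0.672 (DDIT3) for the others. Among nanoplastics libraries these tests gave p from 0.00278 (PPP1R15A) to 0.0667 (DDIT3). The total count of a library was not correlated with any of the 8 (r from −0.17 to 0.02, adjusted p from 0.719 to 0.999 in permutation tests). The part of these measures in the shared pattern was not tested, and the batch of material, which could not be assigned, cannot be told apart from it.

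The genes with a pattern most like each of the 8 were taken as the 3 with the highest Pearson's r of log2 CPM over the 12 libraries, among 12303 genes tested outside the 8. They are given as a description, since they were picked as the best of many. Closest to ASNS were PHGDH (r = 0.99) and PSAT1 (r = 0.97), enzymes of serine synthesis, and ALDH1L2 (r = 0.95), a mitochondrial enzyme of folate metabolism. ALDH1L2 was also closest to PPP1R15A (r = 0.96), ahead of USP32 and HNRNPUL1 (0.94 each). For TRIB3 they were P4HB (r = 0.98), a protein disulfide isomerase, SLC1A1 (0.98), a glutamate transporter, and WFS1 (0.97), a membrane protein of the endoplasmic reticulum. DDIT3 had ANKRD1 (r = 0.97), CANX (0.96), the chaperone calnexin, and SERPINB6 (0.96).

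ATF3 was most like CIART (r = 0.99), a repressor of the circadian clock, MPI (0.98), an enzyme of mannose metabolism, and DDIT4 (0.98), an mTORC1 inhibitor induced by low oxygen and by ATF4. CIART was among the 3 for CHAC1 as well (0.95), after LRATD2 (0.97) and the hexokinase HK2 (0.95). SESN2 had MPP2 (r = 0.97), SLC9A7 (0.96) and DHODH (0.96), an enzyme of pyrimidine synthesis. ATF4 itself had EIF1 (r = 0.95), a factor of start codon selection, NT5E (0.95), an enzyme that makes extracellular adenosine, and SAMD8 (0.94). An r of 0.9 or more was reached by 200 genes for TRIB3 and 190 for ATF3, but by only 26 for CHAC1 and 37 for ATF4.

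Other genes of the pathway were grouped by role. Of 64 such genes with a row 60 were tested, and edgeR with Benjamini-Hochberg adjustment called 0 of them higher and 0 lower, with 5 at an unadjusted p under 0.05, beside 2.1% of all genes tested. Positive log2 fold changes were found for 46 of the 60, with a median of 0.10, beside 50.5% and a median of 0.00133 over all genes tested. PHGDH, PSAT1, DDIT4 and VEGFA, which are in these lists, varied with members of the 8 between libraries. The directions counted here and below are thus not all separate observations. Upstream of ATF4, the 4 kinases of eIF2 had 2 positive and 2 negative log2 fold changes (median 0.01). EIF2AK3, or PERK, which senses unfolded protein, had 0.13 (interval −0.03 to 0.30; edgeR unadjusted p = 0.111, adjusted p = 0.999), and EIF2AK2, which senses double-stranded RNA, had −0.10 (interval −0.36 to 0.16). EIF2AK4, which senses uncharged tRNA, was the most abundant by CPM, at 137 CPM in either group, and its log2 fold change was −0.00068 (interval −0.14 to 0.14). The 8 subunits of eIF2 and of its exchange factor eIF2B had 4 positive and 4 negative values (median 0.00176), and EIF2S3 had one of 0.07 (interval −0.11 to 0.25).

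Partners and feedback genes of ATF4 had 8 of 9 tested members positive (median 0.11), all with an unadjusted p of 0.05 or above. EIF4EBP1, the translation repressor, was at 0.07 (interval −0.10 to 0.25), and CEBPG, a dimer partner of ATF4, had 0.24 (SE 0.17). The stress gene NUPR1 did not pass the filter on low counts.

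Enzymes of amino acid and one-carbon metabolism went in both directions, with 7 of 11 positive (median 0.13) and 2 at an unadjusted p under 0.05. PYCR1, a proline synthesis enzyme, had a log2 fold change of 0.34 (SE 0.12; edgeR unadjusted p = 0.0129, adjusted p = 0.999), with means of 30.0 ± 3.34 in control and 38.1 ± 8.10 CPM in the other group (SD, n = 6 each). CTH, which makes cysteine by transsulfuration, had the opposite sign at −0.40 (SE 0.14; unadjusted p = 0.0106, adjusted p = 0.999 in edgeR), at 5.77 ± 0.816 and 4.36 ± 0.616 CPM. SHMT2, a mitochondrial serine hydroxymethyltransferase and the most abundant of the list, had 0.13 (interval −0.18 to 0.44).

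Amino acid transporters under ATF4 had 7 of 7 tested members positive (median 0.29). The glycine transporter SLC6A9 had a log2 fold change of 0.68 (SE 0.28; edgeR unadjusted p = 0.0257, adjusted p = 0.999), with means of 8.06 ± 1.41 and 12.9 ± 7.31 CPM. SLC38A2, the most abundant of them, had 0.03 (interval −0.13 to 0.18), and the cystine transporter SLC7A11 was too low to test. Aminoacyl-tRNA synthetases with the tRNA exporter XPOT had 9 of 11 positive, with a small median of 0.08. Of these, alanyl-tRNA synthetase AARS1 had 0.23 (SE 0.08; edgeR unadjusted p = 0.0114, adjusted p = 0.999), and EPRS1, which charges glutamate and proline and was the most abundant, had 9.75e-05 (interval −0.12 to 0.12).

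**Figure D5:**
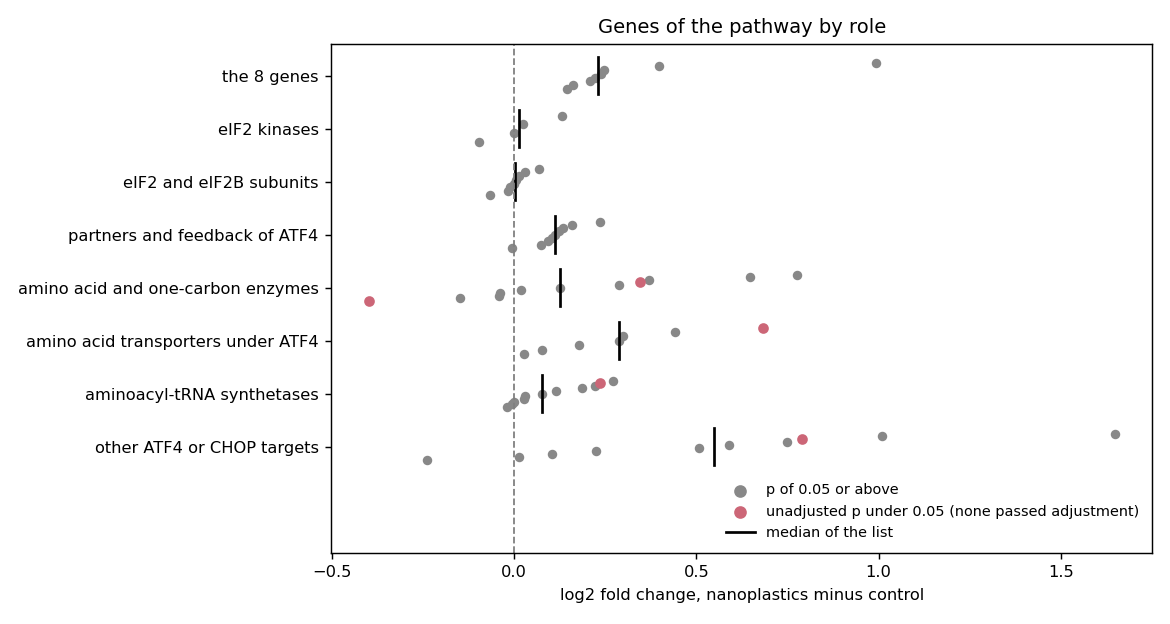
Log2 fold change (nanoplastics minus control) of the 8 transcripts and of 60 other tested genes of the pathway, 1 point per gene, by role, with the median of each list as a black line. The 5 genes with an unadjusted p under 0.05 are red, 4 above 0 and 1 (CTH) below, and the kinases and eIF2 subunits lie between −0.10 and 0.13.

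Further targets of ATF4 or CHOP had 9 of 10 tested members positive and the highest median of these lists, 0.55. HERPUD1, a component of degradation at the endoplasmic reticulum, had a log2 fold change of 0.79 (SE 0.31; edgeR unadjusted p = 0.0205, adjusted p = 0.999), with means of 77.4 ± 19.2 (control) and 134 ± 80.7 CPM (SD). VEGFA, the most abundant of the list, had 0.75 with a wide interval from −0.55 to 2.05. GDF15 and FGF21 did not pass the filter on low counts.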

How the data were processed

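Per the labels' protocols, RNA was sequenced from both ends (150 bases a read). The submitters' processing notes list DESeq2, STAR 2.5.4b and Trim Galore 0.4.5 with no roles. Not given in the sources used here are the counter, its strand setting, the genome build and its annotation. Therefore no coordinates or gene lengths were used, levels of different genes were not compared per length, and reads of overlapping genes cannot be told apart.

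The deposited table of raw counts per gene was used for all tests. From the authors' deposited contrast, p-values and adjusted p-values, log2 fold changes and a signal column per group were read. The headers of the signal columns name only the group, and the values were taken as mean raw counts. 4 columns of other groups in it were not used.

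After dropping 74 exact copies, 17983 rows were left, and filterByExpr (minimum count 10, minimum total 15, 6 libraries) kept 12311. After TMM scaling, the two-sided quasi-likelihood test of edgeR 4.0.16 (R 4.3.3) was applied at an adjusted p of 0.05. A prior count of 2 was added for log2 CPM, and 95% intervals come from the edgeR fit. Correlations used permutation tests in Python 3.11.15 with numpy 2.4.6. On simulated counts for 12311 genes the edgeR test found 14% of those altered 1.25-fold and 64% of those altered 1.5-fold. For both 2-fold and 4-fold it found 88%. These rates were not taken for the stress response transcripts alone. Those varied more than most genes, with a median percentile of 83.7 in edgeR's variability per gene. TRIB3 stood at 99.5 and CHAC1 at 98.5, so detection may be lower for them than these rates. The batches of material, which could not be assigned, could not be part of the simulation.

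Pairs of libraries within a group had a chi-square per degree of freedom of at least 5.01, so none agreed within counting noise. P-values measure the spread between these samples, which may be partly technical. The members and lists were chosen with earlier results of these data known. Named were all 8 members, pathway genes with an unadjusted p under 0.05, the most abundant of each role and the 3 genes most like each member. CEBPG, EIF2AK2, EIF2AK3, the named marker genes and genes too low to test were added after their values were seen. Alternatives covered normalisation, filter, DESeq2 1.42.0, limma-voom (limma 3.58.1), the replicate number as a block, threshold, summed rows and left-out libraries.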

Additional observations from a re-analysis of the deposited data

How the results depend on the processing

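Under 10 alternatives of scaling, filter, test, block, threshold and row choice and with each of the 12 libraries left out, 0 genes were called, so 0 of the 8 and 0 other pathway genes passed. All 8 log2 fold changes stayed positive in each of these settings. Their median was 0.19 to 0.23 in the former and 0.13 (without Nanoplastics 1) to 0.28 (without Nanoplastics 6) in the latter. Members with an unadjusted p under 0.05 numbered up to 3, without Nanoplastics 4. The replicate numbers paired no samples by the rule used, since same-numbered libraries had correlations of deviations from −0.26 to 0.43. With the replicate block edgeR called 0 genes, the median of the 8 was 0.21, and only number 4 correlated best with its own number. The median percentile of the 8 in edgeR's variability per gene fell from 83.7 to 65.7 with no filter beyond a total above 0, where 15496 genes were ranked, an alternative added after seeing the data. All 28 pairs passed in each of 16 alternatives. Of the 40 relations with library measures 29 to 32 passed in 18 alternatives, chosen after seeing the data, and 30 did so without UCHL1 in the oocyte share.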
